A study of Mus musculus with 49 samples.

Results

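Mouse livers taken 4 d after a toxic dose of acetaminophen were compared with livers taken 2 d after it. The comparison holds 10 of the 49 arrays of the series, the 5 titled as 4 d and the 5 titled as 2 d. They were chosen by title alone, and the control arrays were left out. Both groups were livers of male C57BL6/N mice that had been starved overnight, had received 300 mg/kg acetaminophen (APAP, paracetamol) as a single intraperitoneal injection in phosphate-buffered saline, and were fed freely afterwards. Time after the dose is the single label in which the groups differ, and the overnight fast is common to both. The labels give no age. Arrays carry replicate numbers, but whether every number stands for its own mouse is not stated, so p-values reflect only how far these arrays differ, and part of that may be technical. The question set by the design is which transcripts were higher or lower at 4 d than at 2 d.

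Acetaminophen is turned into a reactive quinone imine by cytochromes P450, which are most abundant in the hepatocytes around the central vein, and these cells die after an overdose. Hepatocytes that survive enter the cell cycle and divide, monocytes enter the tissue and clear dead cells, and stellate cells turn into contractile, collagen-producing myofibroblasts around the lesion. As the tissue closes the lesion, hepatocytes take up their metabolic tasks again, among them drug metabolism, bile acid synthesis and the making of fatty acids and cholesterol under the transcription factors SREBP and ChREBP.

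Values are log2 expression levels, 1 probe set per gene, for 5976 genes with a value on all 49 arrays. Array means over these genes lay between 6.25 and 6.46, and the lowest correlation between arrays of a group was 0.98. Values ran up to 14.02 with 10% of them under 3.36, and differences that start near either end can be understated. Secreted hepatocyte proteins marked the tissue as liver: the mean level of the 31 measured members lay between 12.22 and 12.29 on the 4 d arrays and between 12.09 and 12.28 on the 2 d arrays. Adipoq, the adipocyte hormone, averaged 3.34 at 4 d and 3.19 at 2 d, both in that lowest part of the range.

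Some arrays stood apart from the rest of their group. On 2 d replicate 2 the 30 measured DNA replication genes averaged 6.47, within the range of the 4 d arrays (6.40 to 6.77), whereas the other 2 d arrays lay between 7.46 and 8.00. On 2 d replicate 1 the fatty acid and cholesterol synthesis genes were higher than on any other 2 d array. On 4 d replicate 1 the mitosis and spindle genes averaged 7.07, against 6.09 to 6.41 on the other 4 d arrays. Some genes stand in more than 1 of the lists described here. Values without such an array are given beside the genes and lists in which it stood apart most. These arrays were picked after their values were seen. A call gained by leaving out an array that runs against its group is therefore no support for a difference.

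**Figure D1:**
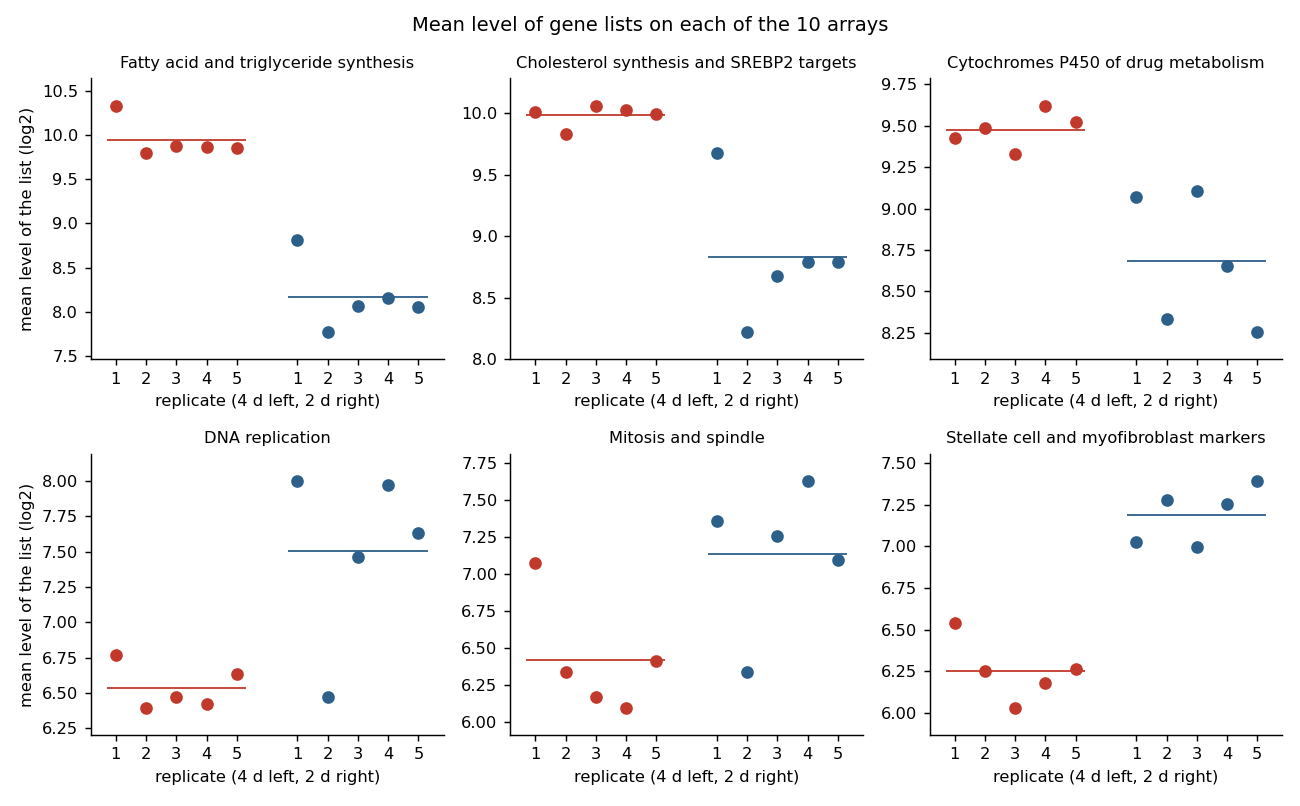
Mean level (log2) of 6 gene lists on each array, 4 d replicates at the left of each panel and 2 d replicates at the right, with a line at each group's mean. For DNA replication, 2 d replicate 2 lies at 6.47, among the 4 d arrays, and for fatty acid synthesis the 4 d arrays all lie above the 2 d arrays.

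Over all genes, limma called 1301 of 5976 (21.8%) at a Benjamini-Hochberg adjusted p under 0.05. At 4 d 401 genes (6.71%) were higher and 900 (15.1%) were lower than at 2 d, and the median difference over all genes was −0.01. At least a 2-fold difference was found for 257 called genes (4.3%), 87 higher (1.46%) and 170 lower (2.84%). All 4 d arrays lay above every 2 d array for 312 genes (5.22%) and below every 2 d array for 626 genes (10.5%).

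The split between higher and lower genes depended on the scale. It was 401 against 900 in the deposited values, 704 against 798 after a further quantile normalization, 944 against 528 after centring each array on its median and 2842 against 401 after centring on ribosomal protein genes. Median centring moved the median of all genes by 0.17 and ribosomal centring by 0.29 on the log2 scale, so differences below about that size have no settled direction. Among genes called with at least a 2-fold difference, 87 were higher and 170 lower in the deposited values, 94 and 132 after quantile normalization, 116 and 115 after median centring and 153 and 89 after ribosomal centring.

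**Figure D2:**
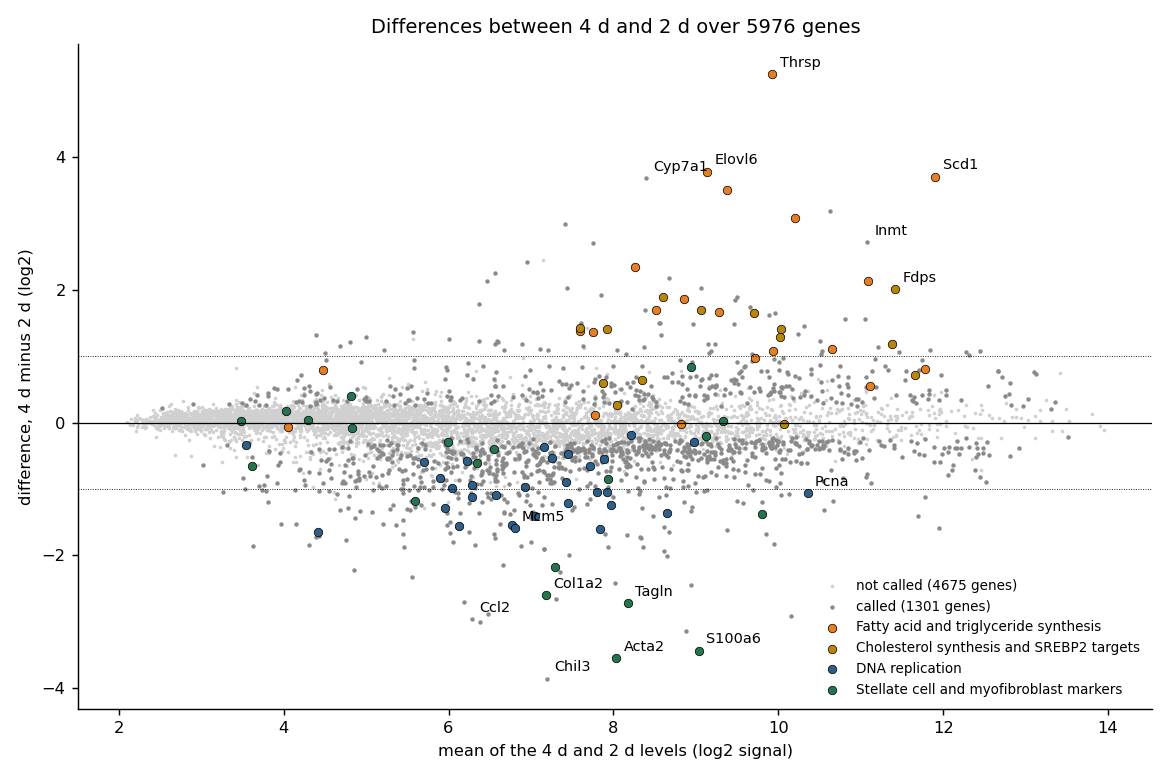
Difference between 4 d and 2 d (log2, y axis; positive values are higher at 4 d) against the mean of both groups' levels (log2, x axis) for 5976 genes, with 4 gene lists in colour. Dotted lines mark a 2-fold difference; Thrsp lies highest at 5.26, and Chil3 (−3.86), Acta2 (−3.55) and S100a6 (−3.44) lie lowest.

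The strongest rises belonged to the synthesis of fatty acids. Of 21 measured genes of fatty acid and triglyceride synthesis, 18 were higher at 4 d and 0 were lower, with a median difference of 1.38 against −0.01 over all genes. Of these, 14 rose at least 2-fold, and for 17 all 4 d arrays lay above every 2 d array. The count stayed at 18 when any single array was left out. The exceptions were Mogat1 (−0.06) and Dgat1 (0.11), acyltransferases of triglyceride synthesis, and Pgd (−0.03), a dehydrogenase of the pentose phosphate pathway, none of which was called.

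Thrsp, which encodes the lipogenic protein Spot14, had log2 levels of 13.01, 12.39, 12.18, 12.67 and 12.52 at 4 d, against 10.06, 6.08, 7.01, 7.46 and 5.89 at 2 d. The 4 d arrays were tightly grouped, while 2 d replicate 1 stood above the other 2 d arrays by more than 2 log2 units. The difference was 5.26 ± 0.64 (SE, n = 5 each), 38.2-fold, with an adjusted p = 0.00031 in limma. Without 2 d replicate 1 it was 5.95 (adjusted p = 2.28e-06).

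Fasn, fatty acid synthase, the multienzyme that builds palmitate, had levels of 11.88, 10.91, 10.76, 10.94 and 11.16 at 4 d, against 9.14, 6.43, 7.60, 7.70 and 7.23 at 2 d. The groups did not overlap, and 2 d replicate 1 was again the highest of its group. The difference was 3.51 ± 0.41 (adjusted p = 0.000234 in limma), and 3.89 without that array. Scd1, the desaturase that turns stearate into oleate, had levels of 13.86, 13.69, 13.78, 13.69 and 13.78 at 4 d, against 11.88, 9.21, 9.87, 9.84 and 9.45 at 2 d. Its 4 d levels lay near the top of the range and differed little among themselves. The difference of 3.71 ± 0.40 (adjusted p = 0.000178) may therefore be understated, and another probe set of Scd1, with a lower signal, gave 5.36. Without 2 d replicate 1 the difference of the brighter probe set was 4.17.

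The other steps of the pathway moved with these. Acss2, which makes acetyl-CoA from acetate, rose by 3.09 ± 0.30, and Elovl6, which lengthens palmitate, by 3.79 ± 0.44. Aacs, which activates acetoacetate for lipid synthesis, rose by 2.34 ± 0.26, and Gpam, the mitochondrial acyltransferase that starts glycerolipid synthesis, by 2.13 ± 0.21 (2.32 without 2 d replicate 1). Among regulators, Mlxipl, which encodes ChREBP, rose by 1.70 and Mid1ip1, a paralogue of Thrsp, by 1.87. Me1 and Pklr, which supply reducing power and pyruvate, rose by 1.67 and 1.36. Desaturases and elongases of polyunsaturated fatty acids rose less, with 1.10 for Fads1, 1.07 for Fads2 and 0.81 for Elovl5. Fatty acid oxidation did not mirror this: of 19 genes of PPAR alpha and fatty acid oxidation, 1 was higher (Decr2, 0.52) and 2 were lower (Cd36, −0.95 and Cyp4a14, −1.32), with a median of −0.10. The call of Cyp4a14, a fatty acid hydroxylase, was lost without any 1 of 7 of the arrays, among them 2 d replicate 2 (−0.99, adjusted p = 0.066), and so was that of Decr2 without 4 d replicate 2 (0.48, adjusted p = 0.0527).

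Of 14 measured genes of cholesterol synthesis and SREBP2 targets, 10 were higher at 4 d and 0 were lower, with a median difference of 1.35. The count was 10 to 12 when single arrays were left out. Fdps, which makes farnesyl diphosphate, had levels of 12.55, 12.19, 12.51, 12.53 and 12.33 at 4 d, against 11.77, 9.43, 10.10, 10.51 and 10.26 at 2 d. The groups did not overlap, but 2 d replicate 1 came within 1 log2 unit of the 4 d arrays while 2 d replicate 2 was lowest. The difference was 2.01 ± 0.33 (adjusted p = 0.00167 in limma). It was 2.35 without 2 d replicate 1 and 1.76 without 2 d replicate 2.

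Steps before and after Fdps rose as well. Idi1, the isomerase just ahead of it, rose by 1.65 ± 0.33, Lss, which closes the sterol rings, by 1.69 ± 0.30, and Sqle, which oxidises squalene, by 1.41 ± 0.28. For Sqle the groups overlapped, since 2 d replicate 1 had 10.41 and 4 d replicate 2 had 10.40. Rdh11, a retinal reductase known to respond to SREBP, rose by 1.90 ± 0.24. The genes not called were Npc1 and Npc2, which carry cholesterol out of lysosomes (0.26 and −0.02), and Mvk and Hsd17b7, enzymes of the pathway itself (0.60 and 0.63).

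SREBP acts on its target promoters together with NF-Y, a factor that binds the CCAAT box, so the promoter windows of these genes were searched for that word. The windows run from 250 bases before to 50 bases after each start site in RefSeq (GRCm38.p6), and 4761 of the 5976 genes have one in the table used. The CCAAT box (CCAAT on either strand) was found in 11 of 11 cholesterol genes with a window (100%) and in 11 of 16 fatty acid genes (68.8%), against 43.1% of all measured genes with a window. Other lists had higher shares than the fatty acid genes, among them pericentral hepatocyte genes (84.6%), ER chaperones and unfolded protein response (82.4%) and DNA replication (73.1%). The sterol regulatory word TCACNCCAC, on either strand, was found in 0 of the 11 and in 1 of the 16, against 1.37% of measured genes with a window. In 1 of 6068 windows a sterol word and a CCAAT box shared bases. A match is a description of the letters and not a binding site. The stretches below show the windows of the leading called genes that hold the box, 5′ to 3′ along the gene, with the CCAAT box or its reverse complement in capitals; Thrsp and Fasn have the largest differences of their list among genes with a match, and Rdh11, Lss and Idi1 those of theirs.
Thrsp (chr7:97417554-97417673, minus strand): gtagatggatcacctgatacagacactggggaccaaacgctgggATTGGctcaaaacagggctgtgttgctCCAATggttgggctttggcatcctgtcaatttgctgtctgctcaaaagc
Fasn (chr11:120824560-120824679, minus strand): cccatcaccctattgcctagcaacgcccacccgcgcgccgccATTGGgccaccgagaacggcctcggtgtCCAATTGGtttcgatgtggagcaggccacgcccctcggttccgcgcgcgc
Rdh11 (chr12:79190931-79191050, minus strand): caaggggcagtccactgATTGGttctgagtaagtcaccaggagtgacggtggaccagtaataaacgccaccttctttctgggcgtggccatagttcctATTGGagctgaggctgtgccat
Lss (chr10:76531505-76531584, plus strand): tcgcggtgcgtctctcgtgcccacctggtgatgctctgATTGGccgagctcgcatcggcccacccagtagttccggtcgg
Idi1 (chr13:8885539-8885618, plus strand): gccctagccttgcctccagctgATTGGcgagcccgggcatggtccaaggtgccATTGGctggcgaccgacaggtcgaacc
In Thrsp the boxes lie at −79 and −52 from the start site, in Lss at −62 and in Idi1 at −45 and −14. Rdh11 holds the box in 1 of its 2 windows, at −72 and 9, the latter after the start site. Fasn holds 3 boxes from −90 to −59, of which the last share bases with each other.

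Drug-metabolizing and bile acid genes formed the next group of rises. Of 20 cytochromes P450 of drug metabolism, 10 were higher at 4 d and 0 were lower (median 0.50), and of 18 conjugation enzymes, 15 were higher and 0 were lower (median 0.70). Among 19 genes of bile acid synthesis and transport, 8 were higher and 0 were lower (median 0.48). Without single arrays these counts ranged from 7 to 12, from 11 to 15 and from 6 to 10.

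Cyp7a1, the hydroxylase that limits how fast cholesterol becomes bile acid, had levels of 10.23, 9.92, 9.76, 10.70 and 10.57 at 4 d, against 7.96, 5.24, 8.57, 6.51 and 4.47 at 2 d. The groups did not overlap, and the 2 d arrays spread over more than 4 log2 units, with replicates 1 and 3 highest. The difference was 3.69 ± 0.67 (adjusted p = 0.00284 in limma), and 3.17 without 2 d replicate 5. Cyp27a1, which starts the alternative route of bile acid synthesis, rose by 1.56 ± 0.25, and Nr1h4, the bile acid receptor FXR, by 0.69 ± 0.11. The transporter Slco1a1 was not called (0.76, adjusted p = 0.386).

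Cyp2c29, a P450 of the hepatic Cyp2c family, had levels of 11.99, 12.51, 12.06, 12.26 and 12.27 at 4 d, against 10.23, 8.34, 10.41, 8.51 and 7.67 at 2 d. Here too 2 d replicates 1 and 3 were the highest of their group and replicate 5 the lowest. The difference was 3.19 ± 0.46 (adjusted p = 0.00088 in limma). Cyp2c55 rose by 2.99 ± 0.44 and Cyp4f14, a P450 that oxidises long-chain fatty acids and eicosanoids, by 1.62 ± 0.40. Cyp2c37 rose by 1.50 ± 0.48, but its call (adjusted p = 0.045) was lost without any 1 of 7 of the arrays, for instance without 2 d replicate 5 (1.25, adjusted p = 0.108). Members of the Cyp2c and Gstm families are close in sequence, and their probe sets may share signal.

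Cyp2e1, the P450 best known for activating acetaminophen, had levels of 13.31, 13.55, 13.45, 13.55 and 13.55 at 4 d, against 13.05, 12.33, 13.18, 12.46 and 12.57 at 2 d. It was already among the brightest genes at 2 d, and the groups did not overlap. The difference was 0.77 ± 0.16 (adjusted p = 0.00553 in limma), close to the top of the range. Among conjugation enzymes, Inmt, an indolethylamine methyltransferase, had levels of 12.08, 12.54, 12.38, 12.95 and 12.24 at 4 d, against 11.41, 8.96, 10.74, 10.17 and 7.31 at 2 d. Its lowest value lay on 2 d replicate 5, without which the difference of 2.72 ± 0.62 became 2.12. Gstm2 rose by 2.18 ± 0.26 and Gsta2 by 1.85 ± 0.19, both glutathione transferases.

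Of 15 genes typical of hepatocytes around the central vein, 11 were higher at 4 d and 0 were lower, with a median of 0.58, and the count was 7 without 4 d replicate 4, 4 d replicate 5, 2 d replicate 2 or 2 d replicate 4. Rhbg, an ammonium transporter, had levels of 7.21, 7.09, 7.18, 7.39 and 7.48 at 4 d, against 5.14, 5.78, 6.07, 5.60 and 4.80 at 2 d. The 4 d arrays lay above all 2 d arrays, and the difference was 1.79 ± 0.21 (adjusted p = 0.000233 in limma). Prodh, which degrades proline, rose by 1.74 ± 0.22 and Oat, ornithine aminotransferase, by 1.22 ± 0.22. Of 8 periportal and urea cycle genes, 2 were higher: Otc, which makes citrulline in the urea cycle, by 1.10 ± 0.25, and Slc38a3, a glutamine transporter, by 0.79 ± 0.20. The median of that list was −0.16, and the difference between the pericentral and the periportal list was not tested. In bulk liver, fewer cells of a type and less RNA per cell cannot be told apart.

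The list of male-biased genes and growth hormone targets, which holds both kinds, was called in part. Of 13 measured, 3 were higher and 0 were lower: Keg1, an acyltransferase-like gene, by 1.89 ± 0.34, Ghr, the growth hormone receptor, by 0.85 ± 0.14, and Igfals, which carries insulin-like growth factors in serum, by 0.58 ± 0.15. Hsd3b5, a steroid dehydrogenase of male mouse liver, had levels of 8.72, 8.72, 8.50, 9.32 and 6.63 at 4 d, against 8.77, 4.39, 4.96, 7.27 and 4.22 at 2 d. The groups overlapped because 2 d replicate 1 was as high as the 4 d arrays and 4 d replicate 5 was low. The difference of 2.46 ± 0.84 was not called (adjusted p = 0.0567). It was called without 2 d replicate 1 (3.17, adjusted p = 0.00741), when the list had 6 members higher, and without 4 d replicate 5 (2.90, adjusted p = 0.0367). Each of these arrays ran against its group, so the calls gained without it are no support.

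**Figure D3:**
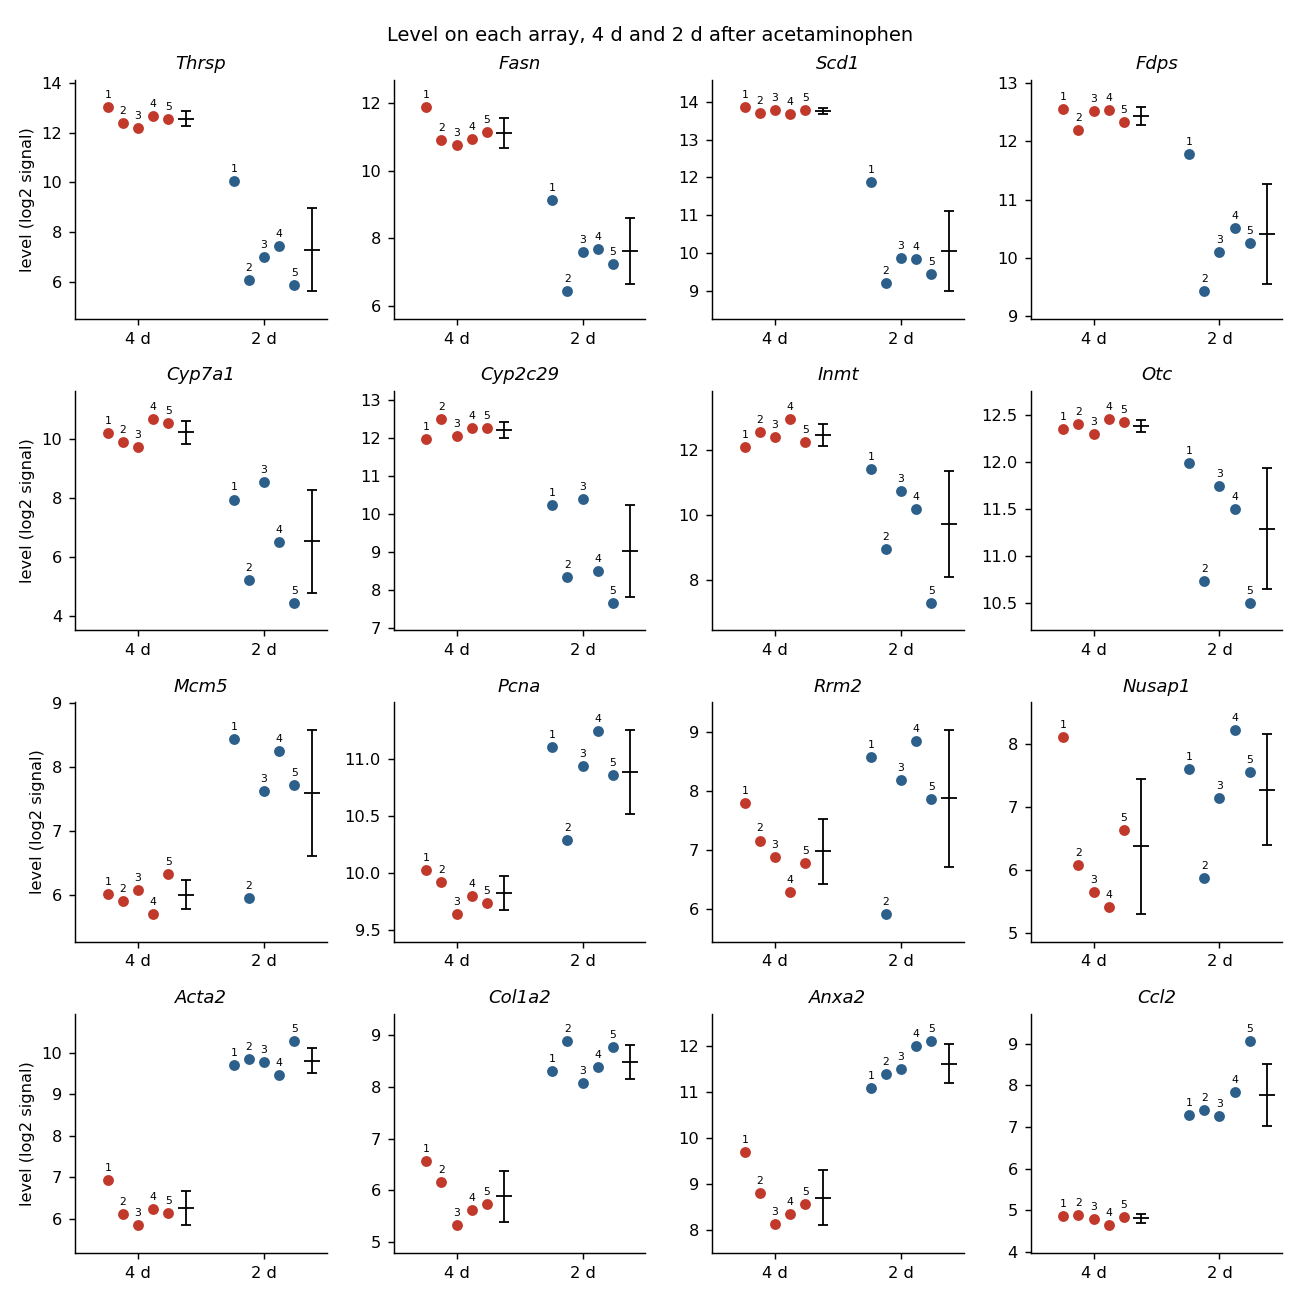
Level (log2) of 16 genes on each array, 4 d at the left and 2 d at the right of each panel; numbers are replicate numbers, and bars show the mean and SD of 5 arrays. Thrsp, Fasn, Scd1 and Cyp7a1 are higher on all 4 d arrays, Acta2, Col1a2, Anxa2 and Ccl2 lower, and Mcm5 on 2 d replicate 2 (5.95) lies among the 4 d arrays.

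Of 30 measured genes of DNA replication, 19 were lower at 4 d and 0 were higher, with a median difference of −1.02, and all 30 had a difference below 0. For 4 of them all 4 d arrays lay below every 2 d array, which also held for 10.5% of all genes. Without 2 d replicate 2, the array that stood apart in these genes, 29 of 30 were lower. That array was picked for its low replication genes, so the calls gained without it are no support. Some other omissions lowered the number of calls over all genes. The genes called lower went from 900 to 621 without 4 d replicate 2 and to 634 without 2 d replicate 4.

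Mcm5, a subunit of the replicative helicase, had levels of 6.01, 5.90, 6.07, 5.70 and 6.33 at 4 d, against 8.45, 5.95, 7.62, 8.25 and 7.72 at 2 d. The 4 d arrays were alike, and 2 d replicate 2 lay among them while the other 2 d arrays were higher. It fell by 1.60 ± 0.38 (SE; adjusted p = 0.0117 in limma), and by 2.01 without 2 d replicate 2 (adjusted p = 0.000128). Mcm4 and Mcm6, subunits of the same ring, fell by 1.61 ± 0.38 and 1.36 ± 0.29 with the same array low, and without it by 2.03 and 1.69. Cdc6, which loads that helicase, fell by 1.66 ± 0.46 (adjusted p = 0.0239), a call lost without 4 d replicate 2 or without 2 d replicates 1, 4 or 5 in turn (lowest adjusted p = 0.0518 among these, without 2 d replicate 1).

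Pcna, the sliding clamp of DNA polymerase, had levels of 10.03, 9.92, 9.64, 9.80 and 9.74 at 4 d, against 11.10, 10.29, 10.94, 11.24 and 10.86 at 2 d. Here the groups did not overlap, although 2 d replicate 2 was again the lowest of its group. The difference was −1.06 ± 0.16 (adjusted p = 0.00102 in limma). Pclaf, a PCNA-binding factor that is in none of the lists, had levels of 6.33, 5.53, 5.69, 6.07 and 6.24 at 4 d, against 9.11, 7.20, 8.65, 9.45 and 8.79 at 2 d. All 4 d arrays lay below every 2 d array, and it fell by 2.67 ± 0.35. Rrm2, the ribonucleotide reductase subunit made in S phase, had levels of 7.79, 7.16, 6.88, 6.30 and 6.79 at 4 d, against 8.57, 5.92, 8.18, 8.84 and 7.87 at 2 d. It was not called (−0.89 ± 0.48, adjusted p = 0.217). It was called without 2 d replicate 2 (−1.38, adjusted p = 0.00628), but that array was picked for its low replication genes, so this call is no support.

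E2F factors switch on replication genes when a cell enters S phase, and the windows of these genes were searched for the E2F words TTTCCCGC and TTTGGCGC on either strand. At least 1 of the words was found in 9 of 26 DNA replication genes with a window (34.6%), against 2.84% of all measured genes with a window and 1.80% of all genes in the table. In the mitosis and spindle list it was found in 0 of 18. In 0 of 6068 windows did an E2F word share bases with a CCAAT box, which was found in 19 of the 26 replication genes. The stretches below are those of the 4 called replication genes with the largest differences among genes that hold a word, 5′ to 3′ along the gene, with the word in capitals. Mcm3, a further helicase subunit, is named for its window and fell by 1.41.
Cdc6 (chr11:98907977-98908056, plus strand): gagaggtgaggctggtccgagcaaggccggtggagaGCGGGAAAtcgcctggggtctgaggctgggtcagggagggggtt
Mcm5 (chr8:75109324-75109403, plus strand): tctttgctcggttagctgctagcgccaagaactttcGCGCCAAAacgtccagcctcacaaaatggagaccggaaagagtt
Mcm3 (chr1:20820263-20820342, minus strand): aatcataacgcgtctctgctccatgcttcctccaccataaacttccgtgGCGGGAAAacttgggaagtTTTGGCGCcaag
Mcm6 (chr1:128359741-128359820, minus strand): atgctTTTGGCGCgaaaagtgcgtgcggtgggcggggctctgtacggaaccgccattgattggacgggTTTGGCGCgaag
Mcm6 holds 2 words upstream of its start, at −110 and −47. Mcm3 holds 2 as well, both within the first 50 bases after its start. The words of Cdc6 and Mcm5 lie at −138 and −149.

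Mitosis genes were lower at 4 d in part. Of 23 measured genes of mitosis and spindle, 11 were lower and 0 were higher, with a median of −0.66. The count was 15 without 2 d replicate 2, 15 without 4 d replicate 1, and 7 without 4 d replicate 2 or without 2 d replicate 4. For 2 of the 23 all 4 d arrays lay below every 2 d array, which held for 10.5% of all genes. Nusap1, a spindle protein, had levels of 8.10, 6.08, 5.65, 5.41 and 6.64 at 4 d, against 7.59, 5.87, 7.14, 8.22 and 7.55 at 2 d. In each group an array ran against its group, 4 d replicate 1 being high and 2 d replicate 2 low. It was not called (−0.90 ± 0.52, adjusted p = 0.252), and was called without 4 d replicate 1 (−1.33, adjusted p = 0.0413). That array ran against its group, so this call is no support. Cdc20, which activates the anaphase-promoting complex, had the same pair of arrays out of order, with 8.79 on 4 d replicate 1 and 6.33 on 2 d replicate 2, and was not called (−0.50, adjusted p = 0.528). It was not called without the 4 d array (−0.86, adjusted p = 0.193) or without the 2 d array (−0.88, adjusted p = 0.175). Melk and Plk4, kinases of dividing cells, fell by 1.54 ± 0.35 and 1.46 ± 0.32. Tubb5, a tubulin that many cells use, fell by 1.68 ± 0.21 with no overlap.

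Of 25 cyclins, kinases and inhibitors of the cell cycle, 8 were lower and 0 were higher (median −0.34), 4 without 4 d replicate 2 or without 2 d replicate 4, and 5 without 4 d replicate 3, 4 d replicate 4 or 2 d replicate 5. Cdkn1a, the cell cycle inhibitor p21, had levels of 8.45, 7.17, 7.12, 7.19 and 7.42 at 4 d, against 8.46, 9.20, 8.67, 9.69 and 10.03 at 2 d. Only 4 d replicate 1, at 8.45, came near the 2 d arrays. The difference was −1.74 ± 0.33 (adjusted p = 0.00344 in limma). Ccne2, a cyclin of the G1-to-S transition, fell by 1.28 ± 0.35, a call lost without 4 d replicate 2 (adjusted p = 0.0546) or 2 d replicate 4 (adjusted p = 0.0567). Ccnd1, cyclin D1, had levels of 8.73, 8.51, 9.73, 8.92 and 9.35 at 4 d, against 10.17, 8.52, 9.94, 9.95 and 9.85 at 2 d. The groups overlapped through 2 d replicate 2, and it was not called (−0.63 ± 0.31, adjusted p = 0.178), but was called without that array (−0.93, adjusted p = 0.0123). Ccna2, cyclin A2, likewise was not called (−0.85, adjusted p = 0.11), and was called without 2 d replicate 2 (−1.12, adjusted p = 0.0235) or without 4 d replicate 1 (−1.11, adjusted p = 0.0261). Calls of Ccnd1 and Ccna2 gained by leaving out such an array are no support. A dimmer probe set of Ccna2 gave −0.92 (adjusted p = 0.0485 in limma).

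Lower levels at 4 d were also found among myofibroblast, matrix and cytoskeletal genes. Of 20 stellate cell and myofibroblast markers, 9 were lower and 1 was higher (median −0.50). Of 23 collagen and fibrillar matrix genes, 15 were lower and 2 were higher (median −0.95), and of 21 annexin, actin and intermediate filament genes, 16 were lower and 0 were higher (median −0.85). All 4 d arrays lay below every 2 d array for 10 of the 20 markers, 13 of the 23 matrix genes and 15 of the 21 cytoskeletal genes. The cytoskeletal count was 16 without any single array, and 2 d replicate 2, low in replication genes, was not low here: its myofibroblast markers averaged 7.28, against 7.19 over all 2 d arrays.

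Acta2, the smooth muscle actin that defines myofibroblasts, had levels of 6.94, 6.13, 5.85, 6.25 and 6.13 at 4 d, against 9.70, 9.85, 9.78, 9.45 and 10.27 at 2 d. The groups were more than 2 log2 units apart. It fell by 3.55 ± 0.20 (adjusted p = 5.1e-06 in limma), on a probe set whose name warns that it may bind other transcripts. Tagln, a calponin-related protein of contractile cells, fell by 2.73 ± 0.21. S100a6, a calcium-binding protein, had levels of 9.28, 7.74, 6.82, 6.11 and 6.65 at 4 d, against 9.76, 10.55, 10.66, 11.30 and 11.54 at 2 d. It fell by 3.44 ± 0.53, and by 3.93 without 4 d replicate 1, the highest of its group. The other markers of this list varied: Pdgfra, Pdgfrb and Cygb, which quiescent stellate cells also carry, had differences of −0.61, −0.30 and −0.39 and were not called, and Lrat, the retinol-storing enzyme of quiescent stellate cells, had 0.40.

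Among matrix genes, the fibrillar collagens fell. Col1a2 had levels of 6.57, 6.17, 5.33, 5.63 and 5.74 at 4 d, against 8.32, 8.89, 8.08, 8.39 and 8.77 at 2 d. The groups did not overlap, and it fell by 2.60 ± 0.23 (adjusted p = 9.92e-05 in limma). Col5a2 fell by 2.00 ± 0.25, Col5a1 fell by 1.84 ± 0.14 and Col1a1 fell by 1.18 ± 0.14, the last at a low signal of 5.01 at 4 d and 6.19 at 2 d. Another, dimmer probe set of Col5a1 (mean 5.34) gave −0.18 and was not called (adjusted p = 0.187 in limma). Of the 23 measured members, 6 had a difference above 0. The called ones among these were Lum, the proteoglycan lumican (0.83), and Col18a1, a basement membrane collagen (0.40). Of 16 matrix proteases and inhibitors, 6 were lower and 1 was higher. Plat, tissue plasminogen activator, fell by 2.88 ± 0.26, Adam8 by 1.74 ± 0.16 and Mmp14, a membrane-bound collagenase, by 1.16 ± 0.19, while Mmp2, a gelatinase, rose by 0.92.

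Anxa2, an annexin that links membranes to actin, had levels of 9.68, 8.80, 8.12, 8.34 and 8.55 at 4 d, against 11.08, 11.39, 11.51, 12.00 and 12.10 at 2 d. All 4 d arrays lay at least 1 log2 unit below the 2 d arrays. It fell by 2.92 ± 0.28 (adjusted p = 0.000123 in limma). Krt8, a keratin of hepatocytes and bile duct cells, fell by 1.41 ± 0.11 and Coro1a, a coronin of leukocytes, by 1.91 ± 0.23. Tpm2, a muscle-type tropomyosin, fell by 2.17 ± 0.16 on its brighter probe set, whose name ends in _a_at. Its much dimmer probe set without that ending gave 0.14. Unmarked probe sets are those whose names do not end in _s_at, _x_at or _a_at. Restricted to them, 7 of 12 cytoskeletal genes, 13 of 20 matrix genes and 5 of 17 myofibroblast markers were lower.

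Of 29 fetal and regeneration genes, 8 were lower, 3 were higher and 18 were not called at 4 d, and 5 were lower without 2 d replicate 5. Ccn2, connective tissue growth factor, had levels of 7.75, 7.26, 6.78, 7.70 and 7.04 at 4 d, against 9.70, 10.03, 10.34, 10.86 and 11.36 at 2 d. It fell by 3.15 ± 0.30 with no overlap. Tnfrsf12a, the receptor of the cytokine TWEAK, fell by 2.45 ± 0.16 and Emp1, an epithelial membrane protein outside the lists, by 3.01 ± 0.35. Afp, alpha-fetoprotein, was not called (−0.11, adjusted p = 0.854). Of 19 immediate early genes 8 were lower, 0 were higher and 11 were not called (median −0.74), among them Ier3, a stress-induced survival gene (−2.71 ± 0.28), and Klf6, an injury-induced transcription factor (−1.80 ± 0.42).

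**Figure D4:**
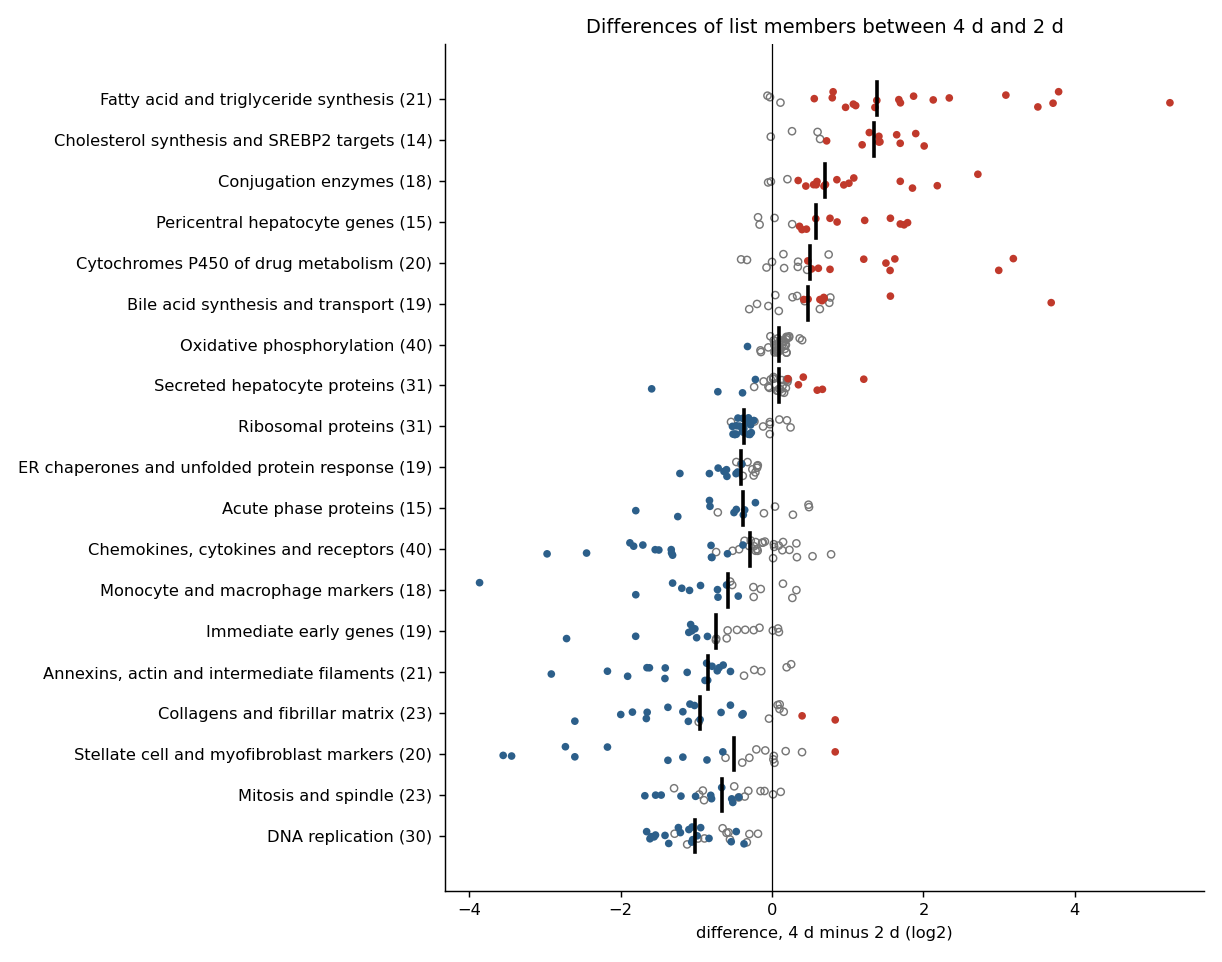
Difference between 4 d and 2 d (log2, x axis) of every measured member of 19 gene lists, one row per list with the number of members; filled points were called (red higher at 4 d, blue lower), open points were not, and black bars are medians. Fatty acid synthesis has a median of 1.38 and DNA replication of −1.02.

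Of 40 chemokines, cytokines and receptors, 15 were lower, 0 were higher and 25 were not called (median −0.29), and of 18 monocyte and macrophage markers, 10 were lower, 0 were higher and 8 were not called (median −0.58). Ccl2, the chemokine that draws monocytes, had levels of 4.87, 4.88, 4.78, 4.64 and 4.83 at 4 d, against 7.29, 7.41, 7.26, 7.83 and 9.06 at 2 d. The 4 d arrays were nearly equal, and 2 d replicate 5 was the highest. It fell by 2.97 ± 0.29 (adjusted p = 0.000123 in limma), and by 2.65 without that array. Ccr2, its receptor on monocytes, fell by 1.31 ± 0.30, although 4 d replicates 1 and 5 (5.29 and 5.43) overlapped with 2 d replicate 3 (5.24).

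Chil3, a chitinase-like protein of monocytes and macrophages, had levels of 7.27, 5.03, 3.89, 4.35 and 5.77 at 4 d, against 8.78, 9.54, 8.30, 8.83 and 10.17 at 2 d. The 4 d arrays spread over more than 3 log2 units, with replicate 1 highest, yet all lay below the 2 d arrays. It fell by 3.86 ± 0.57 (adjusted p = 0.000923), the largest fall among called genes whose groups did not overlap. Cd14, the co-receptor for endotoxin, fell by 1.80 ± 0.31. Lyz2, the lysozyme of macrophages and neutrophils, had levels of 11.79, 11.52, 10.30, 10.77 and 11.55 at 4 d, against 10.97, 10.82, 10.55, 11.03 and 11.22 at 2 d. The groups overlapped and it was not called (0.27 ± 0.26, adjusted p = 0.512), and neither were Csf1r, the macrophage growth factor receptor (0.32), and Cybb, a subunit of the phagocyte oxidase (−0.15).

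Of 8 genes of lipid-associated macrophages, 4 were lower and 1 was higher. Lgals1, a galectin, fell by 1.08 ± 0.17 and Lpl, lipoprotein lipase, by 0.92 ± 0.21. Fabp5, a fatty acid-binding protein, rose by 1.04 ± 0.19, and Trem2, the lipid-sensing receptor of these cells, was not called (−0.33, adjusted p = 0.0833). A dimmer probe set of Trem2 gave 0.16 and was not called either (adjusted p = 0.729 in limma). Over all genes 15.1% were called lower and 6.71% higher, so 1 call in a short marker list is no result about the cell type. Of 19 listed Kupffer cell markers 6 were measured and 1 was lower, Id3 (−1.09), which many other cells also express. Of 11 neutrophil markers 1 was lower, S100a8 (−1.23 ± 0.35), a call that was lost without 4 d replicate 2 or without 2 d replicates 1, 2 or 5. Among 19 markers of T, NK and B cells 2 were higher, Cd4 (0.34) and Cd79b (0.32), and the array means of that list lay between 4.31 and 4.44 at 4 d and between 4.27 and 4.40 at 2 d. The call of Cd4 was lost without 2 d replicate 1 (adjusted p = 0.0536) and that of Cd79b without any 1 of 6 of the arrays (adjusted p up to 0.0803).

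Of 21 liver endothelial markers, 7 were lower and 2 higher. Pecam1, an adhesion molecule between endothelial cells, fell by 1.14 ± 0.26 and Fabp4, a fatty acid-binding protein of capillaries and fat, by 1.87 ± 0.34, while Sparcl1, a secreted matrix glycoprotein, rose by 1.09 ± 0.12. Of 12 bile duct markers 1 was lower, Cldn4, a tight junction protein (−1.24 ± 0.34), whose call was lost without 4 d replicate 2 (adjusted p = 0.054) or 4 d replicate 3 (adjusted p = 0.0517), and Krt19 and Epcam had differences of 0.25 and 0.01. Beside the rise of lipogenic genes, 11 adipocyte markers gave 1 higher (Cebpa, 0.75) and 2 lower (Fabp4 and Lpl), with array means of 6.61 to 6.82 at 4 d and 6.76 to 6.95 at 2 d. Markers of neighbouring tissues gave 1 lower of 8, Fabp2 of enterocytes (−0.80), with array means of 5.74 to 6.05 at 4 d and 5.75 to 6.01 at 2 d. Since 15.1% of all genes were called lower, the single calls among bile duct and neighbouring tissue markers are no result about those tissues.

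Genes of protein synthesis and folding had small differences whose calls changed with the scale. Of 31 ribosomal protein genes, 22 were lower and 0 were higher in the deposited values (median −0.37), but 8 were lower after median centring. After ribosomal centring 6 were lower and 5 higher. That centring sets the mean of these same 31 genes equal on every array, so their counts under it say nothing about their direction. Rpl8, Rplp2 and Rps29, proteins of both ribosomal subunits, had differences of −0.52, −0.52 and −0.49. For ribosome biogenesis and nucleolus, 11 of 19 were lower, 4 and 2 after those centrings and 6 without 4 d replicate 2. Nhp2 and Gar1, which belong to the same class of small nucleolar particle, fell by 0.92 ± 0.09 and 0.84 ± 0.15. For the proteasome, 10 of 22 were lower, and 1 was lower after either centring, with 4 higher after the ribosomal one. Psmd8, a subunit of the proteasome cap, fell by 0.84 ± 0.10.

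Of 19 ER chaperone and unfolded protein response genes, 9 were lower and 0 were higher in the deposited values (median −0.41), 6 and 0 after median centring and 3 and 0 after ribosomal centring. Without 2 d replicate 2, 14 were lower, but that array ran against its group in these genes, so the gain is no support. Sdf2l1, an ER-resident stress gene, had levels of 8.62, 8.56, 9.12, 9.24 and 9.29 at 4 d, against 10.36, 9.30, 10.28, 10.57 and 10.41 at 2 d. The groups did not overlap, although 2 d replicate 2 came within reach of the highest 4 d array. It fell by 1.22 ± 0.24, and without that array by 1.44. For oxidative phosphorylation, 39 of 40 genes were not called in the deposited values (median 0.10), whereas 13 were higher after median centring and 36 after ribosomal centring. The gene called was Cycs, cytochrome c (−0.34 ± 0.10), whose call was lost after both centrings and without any 1 of 6 of the arrays (adjusted p up to 0.07).

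Proteins that the liver secretes were mixed. Of 15 acute phase genes, 9 were lower and 0 were higher (median −0.38), and 4 were lower after median centring. Socs3, the feedback inhibitor of interleukin 6 signalling, fell by 1.25 ± 0.23 and Lrg1, a leucine-rich serum glycoprotein, by 0.83 ± 0.14, while Mt1, metallothionein, was not called (−0.72, adjusted p = 0.201). Of 31 secreted hepatocyte proteins 6 were higher and 4 lower, where 6.71% of all genes were called higher and 15.1% lower. Apoa4, an apolipoprotein of chylomicrons and very low density lipoproteins, fell by 1.59 ± 0.16, and Mbl2, a mannose-binding lectin of the complement system, rose by 1.21 ± 0.20. Of 18 complement genes 4 were higher and 2 lower, the lower ones being the receptors C5ar1 (−1.02) and C3ar1 (−0.75). The call of C3ar1 was lost without any 1 of 5 of the arrays (adjusted p up to 0.0600). Of 20 interferon-induced genes, 8 were lower and 0 were higher, among them Rsad2 (−0.89) and Irf7 (−0.87), which encode an antiviral enzyme and a transcription factor.

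Named genes of carbohydrate use went both ways. Pkm, the pyruvate kinase of non-hepatocyte and growing cells, had levels of 7.07, 6.07, 5.75, 5.98 and 6.27 at 4 d, against 7.74, 9.03, 7.93, 8.75 and 8.97 at 2 d. It fell by 2.25 ± 0.30 with no overlap, whereas Pklr, the pyruvate kinase of hepatocytes described with the lipogenic genes, rose. Pdk1, which restrains pyruvate dehydrogenase, rose by 1.50 ± 0.20. Of 19 genes of glycolysis and hypoxia 6 were lower and 2 higher, where 15.1% of all genes were called lower and 6.71% higher. Of 9 genes of gluconeogenesis and insulin response 2 were higher and 1 was lower, with a median of 0.02. Pygl, liver glycogen phosphorylase, rose by 1.07 ± 0.18 and Igfbp1, an insulin-repressed binding protein, fell by 0.89 ± 0.20, while G6pc was not called (0.66, adjusted p = 0.0685).

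Other strong differences lay outside the lists. Sucnr1, a succinate receptor, had levels of 9.59, 9.32, 9.06, 9.21 and 8.32 at 4 d, against 7.63, 6.05, 6.58, 6.13 and 5.60 at 2 d, a difference of 2.70 ± 0.34. Smoc2, a secreted calcium-binding matrix protein, had 8.87, 7.04, 8.71, 8.12 and 8.09 at 4 d, against 6.70, 5.36, 5.53, 5.52 and 5.60 at 2 d, a difference of 2.43 ± 0.34. In both genes every 4 d array lay above every 2 d array, and 2 d replicate 1 was the highest of its group. Without that array the difference of Smoc2 was 2.67. Dct, dopachrome tautomerase, best known from pigment cells, rose by 2.26 ± 0.26. Slc25a30, a mitochondrial carrier, fell by 2.43 ± 0.27, and Ubd, a ubiquitin-like modifier induced by inflammatory cytokines, by 2.34 ± 0.32.

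The other times after the dose place these levels on a course, given as group means ± SD without a test. Thrsp averaged 7.14 ± 0.70 at 1 h, 8.00 ± 0.84 at 6 h, 6.63 ± 0.45 at 12 h and 6.50 ± 0.32 at 1 d. It averaged 7.30 ± 1.67 at 2 d, 12.56 ± 0.31 at 4 d, 11.55 ± 0.54 at 6 d, 10.78 ± 0.83 at 8 d and 10.89 ± 0.26 at 16 d. Its 4 d mean was thus the highest of the 9 times, and it stayed above 10 afterwards. The list of fatty acid and triglyceride synthesis as a whole averaged 8.17 at 2 d, 9.94 at 4 d, 9.41 at 6 d and 9.26 at 16 d. Cholesterol synthesis had already climbed to 9.14 at 1 d, and was 8.83 at 2 d and 9.99 at 4 d. Smoc2 peaked at 4 d alone, with 5.74 ± 0.54 at 2 d, 8.17 ± 0.72 at 4 d and 5.84 ± 0.43 at 6 d.

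DNA replication genes averaged 6.15 at 1 d, 7.51 at 2 d, 6.54 at 4 d and 5.89 at 6 d, so that at 4 d they lay between the 2 d and the 6 d means. Mitosis genes averaged 5.67 at 1 d, 7.13 at 2 d, 6.42 at 4 d and 5.67 at 6 d. Acta2 averaged 8.09 ± 0.65 at 1 d, 9.81 ± 0.30 at 2 d, 6.26 ± 0.41 at 4 d and 6.11 ± 0.12 at 6 d. Col1a2 averaged 4.57 ± 0.67 at 1 d, 8.49 ± 0.33 at 2 d, 5.89 ± 0.49 at 4 d and 4.90 ± 0.23 at 6 d. Monocyte and macrophage markers averaged 7.11 at 1 d, 7.64 at 2 d, 6.88 at 4 d and 6.44 at 6 d. Lyz2 was highest at 4 d (11.19 ± 0.63), with 10.92 ± 0.25 at 2 d and 9.64 ± 0.26 at 6 d.

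The list of male-biased genes and growth hormone targets had its highest means after 4 d. The list averaged 8.12 at 1 d, 8.36 at 2 d, 8.97 at 4 d and 10.44 at 6 d, and Hsd3b5 5.39 ± 0.88, 5.92 ± 2.01, 8.38 ± 1.02 and 11.39 ± 0.26 at those times. Conjugation enzymes had their highest mean at 4 d, with 8.72 at 1 d, 9.12 at 2 d, 10.03 at 4 d and 9.60 at 6 d.

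**Figure D5:**
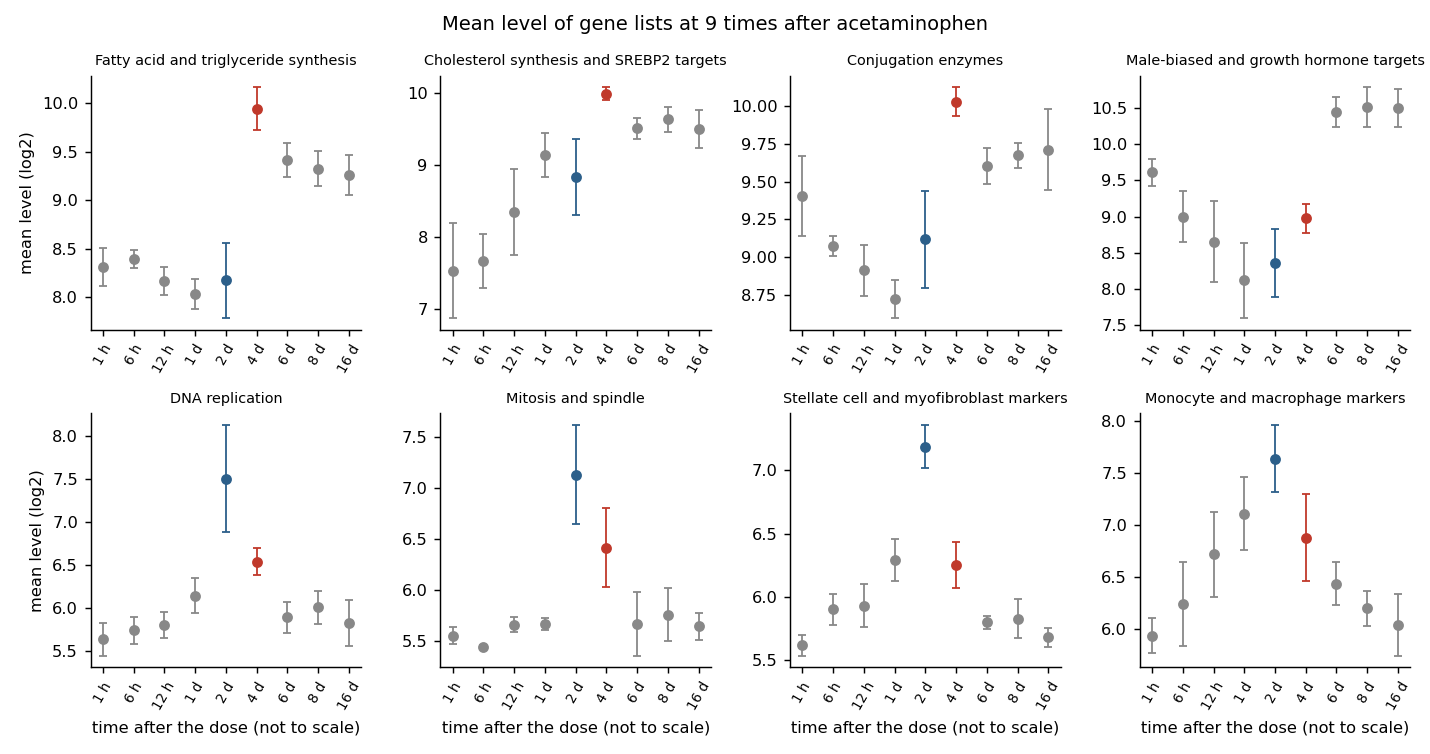
Mean level (log2) of 8 gene lists at 9 times after the dose, with the SD over arrays as bars; blue marks 2 d and red marks 4 d, and the time axis is not to scale. Fatty acid synthesis is at 9.94 at 4 d, against 8.17 at 2 d, and male-biased genes and growth hormone targets reach 10.44 only at 6 d.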

How the data were processed

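RNA of mouse liver was measured on Affymetrix arrays. The deposited values are log2 expression levels per probe set, made by the authors with RMA in oligo 1.52.0, per the submitters' processing notes; the sources used here do not give the order of steps. Of 45101 probe sets, 8137 had a value on all 49 arrays, and 7370 of these carry 1 gene symbol in the platform annotation, 223 several and 544 none. Each of 5976 genes was represented by its brightest probe set, by the mean of all arrays.

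The contrast of 4 d minus 2 d was fitted on the 10 arrays with limma 3.58.1 (lmFit and eBayes) in R 4.3.3, without covariates. Every adjusted p printed is limma's, adjusted over all genes by Benjamini-Hochberg, and a gene is called under 0.05. The fit was tested on simulated data. The number of arrays, 5 a group, limits the precision.

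Genes were named by a rule: the 15 genes that rose most and the 15 that fell most among called genes without overlap, the 3 largest called differences of each list, and a fixed panel. Adipoq, Col18a1, Csf1r, Cybb, Cygb, Dgat1, Elovl5, Epcam, Fads1, Fads2, Hsd17b7, Krt19, Lrat, Lum, Mcm3, Me1, Mid1ip1, Mlxipl, Mmp2, Mogat1, Mvk, Npc1, Npc2, Pdgfra, Pdgfrb, Pgd and Pklr lie outside it and were chosen after their values were seen. The groups and lists were chosen with earlier results of these data known. The alternatives were other normalizations and centrings, wider fits, array weights, other probe set rules, the replicate number as a block and leaving out each array in turn.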

Additional observations from a re-analysis of the deposited data

Results flagged for a closer look

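In groups of 5 arrays, a value was singled out where its gap to the nearest other array exceeded 0.71 of the group's range (Dixon's criterion), which chance gives in about 1 of 20 groups. The criterion is relative, so in a gene with a narrow range a small gap is enough. Of 314 groups of named genes, 26 had such a value. By array, 7 lay on 4 d replicate 1, 4 each on 4 d replicate 3, 2 d replicate 1 and 2 d replicate 2, 2 each on 4 d replicate 2 and 2 d replicate 5, and 1 each on 4 d replicate 4, 4 d replicate 5 and 2 d replicate 3.

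On 4 d replicate 1, Acss2 (12.29), Elovl6 (11.82), Apoa4 (11.72), Cdkn1a (8.45) and Adam8 (5.89) were the highest of the 4 d arrays, and Cyp2c55 (8.07) and Tap1 (6.49) the lowest. On 4 d replicate 3, Slc37a4 (10.14), Nr1h4 (9.02), Dnajb1 (7.82) and Igfbp3 (6.90) were the lowest, as were Vnn1 (6.93) and Sparcl1 (5.49) on 4 d replicate 2. Car1 (6.17) was high on 4 d replicate 4 and Cd4 (5.95) on 4 d replicate 5.

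On 2 d replicate 1, Scd1 (11.88), Gpam (10.78), Smoc2 (6.70) and Per3 (6.23) were the highest of the 2 d arrays, in the direction of the 4 d arrays. On 2 d replicate 2, Sdf2l1 (9.30), Ccnd1 (8.52) and Mcm6 (8.02) were the lowest and Nr1h4 (8.97) the highest, again toward the 4 d levels. G6pc (10.73) and Itgax (5.97) were high on 2 d replicate 5, and Atp6v1a (8.30) was low on 2 d replicate 3.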

How the results depend on the processing

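The count of 1301 called genes was 3243 after centring on ribosomal protein genes, with 2842 higher and 401 lower. Under the other alternatives that kept all 10 arrays it was 962 (unmarked probe sets, 4909 genes tested) to 1763. Without single arrays it was 933 (without 4 d replicate 2) to 1374 (without 4 d replicate 1), and the count with at least a 2-fold difference was 211 to 298. Of 3265 values of the 157 named genes under these alternatives, 3057 kept direction and side of the threshold, 179 were no longer called and 27 were newly called. Both reversed values came from unmarked probe sets, Fscn1 with 0.021 and Tpm2 with 0.14. Of the 144 named genes that were called, 35 lost their call under at least 1 alternative. The call of 21 named genes was lost without some single array. With the replicate number as a block, 1763 genes were called. The labels do not say what a replicate number shares, and the deviations of same-numbered 4 d and 2 d arrays correlated by 0.03, 0.31, 0.46, 0.03 and 0.36, so the numbers were not taken as pairs; replicates 3 and 5 correlated best with their own number and replicates 1, 2 and 4 did not. Genes near the dim end, such as Ccl2 at 4 d, and near the bright end, such as Scd1 at 4 d, have differences limited by the range of the signal.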

Other observations

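Antioxidant genes that NRF2 controls went both ways. Of 13 measured, 5 were higher and 3 lower at 4 d, and 7 were higher and 0 lower after median centring. The glutathione transferases Gsta2 (1.85 ± 0.19) and Gstm1 (1.02 ± 0.21) and Ugdh, which supplies glucuronic acid (0.69 ± 0.12), rose, whereas the reductases Gsr (−0.46 ± 0.09) and Txnrd1 (−0.33 ± 0.08) fell in the deposited values. Of 8 tubulins 3 fell, among them Tuba1a (−2.01 ± 0.20) on a probe set that may bind related tubulins, and Tubb6 (−1.57 ± 0.31).

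Per3, a gene of the circadian clock, had levels of 5.57, 6.41, 6.88, 7.39 and 6.95 at 4 d, against 6.23, 5.25, 5.29, 5.12 and 5.02 at 2 d. The groups overlapped through 4 d replicate 1 and 2 d replicate 1, and the difference was 1.26 ± 0.32 (adjusted p = 0.0163 in limma). A dimmer probe set of the gene gave 0.12 and was not called (adjusted p = 0.582 in limma). Per3 was the 1 called member of 11 clock genes, and without 4 d replicate 1 5 were higher and 1 lower. That array ran against its group in this list, so the calls gained without it are no support. Over the course Per3 averaged 5.38 at 2 d, 6.64 at 4 d and 5.20 at 6 d. The labels do not give the hour at which livers were taken. Car1, carbonic anhydrase 1 of red cells, had 5.57, 5.57, 5.50, 6.17 and 5.40 at 4 d, against 5.05, 3.98, 4.32, 4.30 and 4.14 at 2 d, and was the 1 called member of 8 erythroid genes (1.28 ± 0.20). Tff3, a trefoil peptide of mucosal and bile duct epithelium, rose by 1.23 ± 0.23, with 4 d replicate 1 (6.51) and 2 d replicate 1 (6.53) at the same level.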
